A study of Mus musculus with 8 samples.

Results

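The transcriptional repressor gene Trps1 was examined together with 9 genes that encode subunits of the NuRD and CoREST corepressor complexes, namely Chd4, Hdac1, Hdac2, Mta1, Mta2, Mta3, Rcor1, Kdm1a and Mbd3. These 10 genes were taken by Entrez Gene ID from the 24594 genes of a count table, and all 10 had enough reads to be tested. Their RNA was measured in 4 libraries of c-Kit-high luminal progenitors (LP) and 4 libraries of c-Kit-low mature luminal cells, freshly sorted on EpCAM, CD49f, cKit and CD14 from the mammary gland of virgin C57BL/6J mice. All groups were wild type and untreated, so no library carried an shRNA or a deletion of Trps1, and the methods give an age of 12 to 20 weeks for adult females. Each library was made from 500 pg of RNA by amplification of cDNA.

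TRPS1 is an atypical member of the GATA family of zinc finger proteins. It binds GATA sites in DNA as other GATA factors do, but it represses transcription, and it does so by bringing corepressor complexes to chromatin. NuRD joins a nucleosome remodelling helicase to histone deacetylases, and CoREST joins a histone demethylase to the same deacetylases, so that HDAC1 and HDAC2 are shared between both complexes. In the mammary gland, luminal progenitors and mature hormone-sensing cells form the inner layer of the ducts, and GATA3 is the GATA factor best known for maintaining that layer.

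To ask whether the genes that encode TRPS1 and its partners differ between progenitors and their mature counterparts, the LP libraries were compared with the mature libraries. Trps1 was higher in LP. None of the 9 subunit genes passed the test in either direction. Levels are given as CPM, the counts of a gene relative to the TMM-adjusted size of its library, and differences as log2 fold changes of LP over mature, so that positive values are higher in LP. Differences were tested in edgeR with its quasi-likelihood F-test, p-values were adjusted after Benjamini and Hochberg for the 12816 genes tested, and a gene was called at an adjusted p under 0.05.

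The libraries held 5510863 to 7089597 counts in LP and 4410049 to 7791593 in mature cells. The fractions were checked on cell type markers. Of 4 progenitor markers, Kit, Elf5 and Cd14 were called higher in LP, and Aldh1a3 was not called at an adjusted p of 0.0512 from edgeR. The labels list cKit and CD14 among the sorting markers, and the fractions are defined by c-Kit, so the difference in Kit was selected by the gate, and that in Cd14 may have been. All 7 mature markers were called lower in LP. The luminal keratin genes Krt8, Krt18 and Krt19 were lower in LP as well, whereas Epcam was not called. Markers of other cells were low in both fractions. Over 8 basal markers the summed level was 18.2 to 49.5 CPM in LP and 15.6 to 77.2 CPM in mature cells, with Krt5 at 0 in 5 of the 8 libraries. Over 6 fibroblast markers it was 7.35 to 41.7 CPM and 27.0 to 179 CPM, and Dcn made up most of the highest values. Over 4 endothelial markers it was 3.05 to 8.48 CPM and 0.984 to 8.08 CPM, with Kdr at 0 in all libraries. Over 6 immune markers it was 34.0 to 52.7 CPM and 7.94 to 41.2 CPM, nearly all from Cd68, and Cd3e and C1qa were at 0 throughout. Over 6 proliferation markers it was 11.9 to 25.1 CPM and 10.5 to 40.4 CPM, and 1 of them, Mki67, was lower in LP. Mature replicate 3 held the highest levels of Kit and Elf5 and the highest summed basal markers among the mature libraries. In bulk libraries of this kind, fewer cells of a type and less RNA per cell cannot be told apart.

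Trps1 (Entrez Gene 83925, mm10 chromosome 15, 50654757 to 50890631) encodes the repressor itself. It was measured at 559, 754, 726 and 521 CPM in LP replicates 1 to 4 and at 182, 222, 388 and 266 CPM in mature replicates 1 to 4. Every LP library was above every mature library, although the highest mature library, replicate 3, lay closer to the lowest LP library than to the lowest mature one. The group means were 640 ± 117 CPM (SD, n = 4) and 265 ± 89.3 CPM (SD, n = 4). The log2 fold change was 1.27 with an SE of 0.246, or 2.42-fold higher in LP with a 95% interval of 1.66 to 3.52, at an adjusted p of 0.00438 from the edgeR quasi-likelihood test. An exact two-sided permutation test over the 8 libraries gave p = 0.0286, the smallest value that 4 against 4 can give. Between 3753 and 5243 reads in LP and between 846 and 2689 in mature cells lay behind these values. Among all tested genes, Trps1 ranked 144th by mean CPM in LP and 658th in mature cells. In the quasi-likelihood fit Trps1 was not called at a stricter level, which 0.0234% of all tested genes passed. That level required an adjusted p under 1e-4 and more than 1 unit of log2 fold change in size. Trps1 met both limits in DESeq2 (log2 fold change 1.29, adjusted p of 4.65e-06). It also met them in the likelihood ratio test (1.27, adjusted p of 3.71e-05) and exact test (1.27, adjusted p of 3.98e-05) of edgeR. The share of all tested genes that pass in those tests was not counted. In the quasi-likelihood fit, 2269 of the 12816 tested genes had an absolute log2 fold change at least as large as that of Trps1. By p in that fit, Trps1 ranked 410th among the genes higher in LP.

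Mature replicate 3 was the mature library with the most Trps1, and it was also the mature library with the most Kit, at 179 CPM against 41.2 to 73.5 CPM in the other three, and the most Elf5, at 112 CPM against 25.7 to 44.0 CPM. Without that library the log2 fold change of Trps1 was 1.55. What part progenitors in this mature library had in its Trps1 level was not tested.

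**Figure D1:**
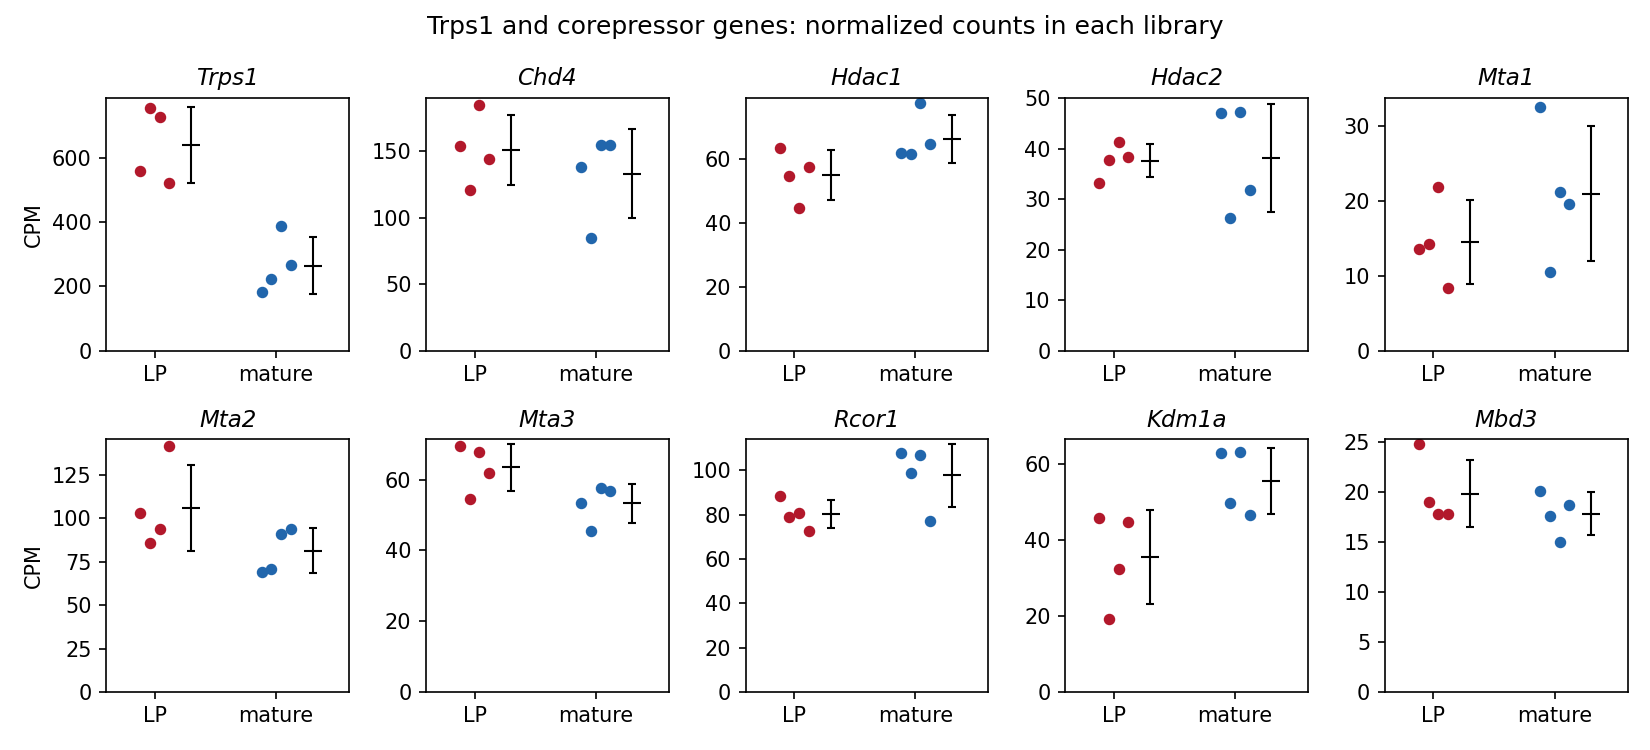
Normalized counts (CPM, linear axis from 0, a scale of its own for each gene) of Trps1 and the 9 corepressor subunit genes in each library, with LP in red and mature in blue; the black mark and bar give the group mean and SD of 4 libraries. The LP points lie above all mature points for Trps1 (521 to 754 against 182 to 388 CPM) and below them for Kdm1a (19.3 to 46.0 against 46.7 to 63.4 CPM), and the groups overlap in the other 8 genes.

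Of the 10 genes, 1 was called higher in LP and 0 lower. Over all 12816 tested genes, 24.7% were called, 10.9% as higher in LP and 13.8% as lower. The groups did not overlap for 2 of the 10, Trps1 and Kdm1a, against 29.5% of all tested genes. For the 9 subunit genes edgeR made 0 calls, with 1 unadjusted p under 0.05, and DESeq2, the edgeR exact test and the edgeR likelihood ratio test made none either. Their log2 fold changes ran from -0.65 to 0.38, with 4 positive and 5 negative. The median absolute log2 fold change was 0.269 for the 9 subunit genes and 0.548 over all tested genes. These medians were not matched for expression level. The 95% intervals of 7 of the 9 lay within a log2 fold change of 1 in both directions, and those of Mta1 and Kdm1a did not.

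Chd4 (Entrez Gene 107932, chromosome 6, 125095980 to 125130591) encodes the helicase that moves nucleosomes in NuRD. It had 154, 121, 185 and 144 CPM in LP replicates 1 to 4 and 138, 84.6, 155 and 155 CPM in mature replicates 1 to 4. The ranges overlapped, and only mature replicate 2, the library with the fewest counts, fell below all LP libraries. For Chd4 the log2 fold change was 0.18 with a 95% interval of -0.29 to 0.65 and an adjusted p of 0.582 in edgeR. It was 0.04 without mature replicate 2, 0.07 without LP replicate 3, 0.28 without LP replicate 2, and 0.29 without mature replicate 3 or 4.

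Hdac1 (Entrez Gene 433759, chromosome 4, 129516104 to 129542646) and Hdac2 (Entrez Gene 15182, chromosome 10, 36974297 to 37001889) encode the deacetylases shared by NuRD and CoREST. Hdac1 had 63.5, 54.8, 44.8 and 57.4 CPM in LP and 61.9, 61.5, 77.5 and 64.8 CPM in mature cells. LP replicate 1 reached into the mature range and the other LP libraries lay below it. The log2 fold change of Hdac1 was -0.27 (95% interval -0.64 to 0.10, adjusted p of 0.276 in edgeR), and -0.16 without mature replicate 3. With libraries left out it ran from -0.37, without both libraries of replicate 1, to -0.10, without both libraries of replicate 3. Hdac1 shares sequence with other annotated genes. Of the 1988 stretches of 51 bases, the read length, in its longest transcript, 58.5% also occur in transcripts of other genes, led by Gm10093, AC125456.1 and Gm4864, none of which the count table lists by these names, so that its level is uncertain. For the other members this share was at most 0.071%.

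Hdac2 had 33.3, 37.7, 41.3 and 38.3 CPM in LP and 47.2, 26.3, 47.4 and 31.8 CPM in mature cells. The LP libraries lay inside the mature range. Its log2 fold change was -0.02 (95% interval -0.53 to 0.48, adjusted p of 0.954 in edgeR), the smallest of the 10, and its sign depended on the processing.

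MTA proteins form the scaffold that holds the deacetylases in NuRD, and the products of Mta1, Mta2 and Mta3 can each take that place. Mta2 (Entrez Gene 23942, chromosome 19, 8941920 to 8952300) had 103, 85.8, 93.8 and 142 CPM in LP and 69.3, 70.9, 91.1 and 94.0 CPM in mature cells, and LP replicate 4 stood above the rest. Mta3 (Entrez Gene 116871, chromosome 17, 83706163 to 83823715) had 69.4, 54.6, 67.9 and 61.9 CPM in LP and 53.3, 45.4, 57.6 and 56.8 CPM in mature cells. Mta1 (Entrez Gene 116870, chromosome 12, 113098248 to 113137206) had 13.5, 14.2, 21.9 and 8.32 CPM in LP and 32.5, 10.5, 21.2 and 19.6 CPM in mature cells. The groups overlapped for all 3 genes. The log2 fold change was 0.38 for Mta2 (95% interval -0.05 to 0.81, adjusted p of 0.179 in edgeR) and 0.25 for Mta3 (-0.11 to 0.61, adjusted p of 0.289). For Mta1 it was -0.54 (-1.41 to 0.33, adjusted p of 0.351), the widest interval among the members, from a gene with 40 to 231 reads in a library. Leaving out 1 library moved it to between -0.80, without LP replicate 3, and -0.23, without mature replicate 1, and moved Mta2 to 0.22 without LP replicate 4.

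Mbd3 (Entrez Gene 17192, chromosome 10, 80392539 to 80399531) encodes the methyl-CpG-binding domain subunit of NuRD. It had 24.8, 19.0, 17.8 and 17.8 CPM in LP and 20.1, 17.6, 15.0 and 18.7 CPM in mature cells, with overlapping groups. LP exceeded mature cells by a log2 fold change of 0.15 (95% interval -0.39 to 0.70, adjusted p of 0.695 in edgeR), and by 0.03 without LP replicate 1 and 0.23 without mature replicate 1.

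Rcor1 (Entrez Gene 217864, chromosome 12, 111039367 to 111115902) encodes CoREST, the scaffold after which that complex is named. It had 88.3, 78.9, 80.8 and 72.7 CPM in LP and 108, 98.8, 107 and 77.3 CPM in mature cells. Mature replicate 4 lay in the LP range and the other mature libraries lay above it. Rcor1 had a log2 fold change of -0.28 (95% interval -0.63 to 0.06, adjusted p of 0.215 in edgeR).

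Kdm1a (Entrez Gene 99982, chromosome 4, 136550533 to 136602787) encodes LSD1, the CoREST enzyme that removes methyl groups from lysine 4 of histone H3. It had 46.0, 19.3, 32.5 and 44.7 CPM in LP and 62.9, 49.9, 63.4 and 46.7 CPM in mature cells. The groups did not overlap, but the gap between the highest LP and the lowest mature library was small beside the spread within LP. The group means were 35.6 ± 12.5 and 55.7 ± 8.65 CPM (SD, n = 4 each), and the exact two-sided permutation test over libraries gave p = 0.0286. That unadjusted value is the smallest that 4 against 4 can give, and it follows from the lack of overlap. The log2 fold change was -0.65 with an SE of 0.270 and a 95% interval of -1.24 to -0.05. Its p was 0.0367 before adjustment over all genes and 0.108 after it in edgeR, so the difference failed the correction. Without LP replicate 2, the library with the least Kdm1a, the log2 fold change was -0.43. Without both libraries of replicate 4 it was -0.84, and the other fits with libraries left out lay between these values.

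**Figure D2:**
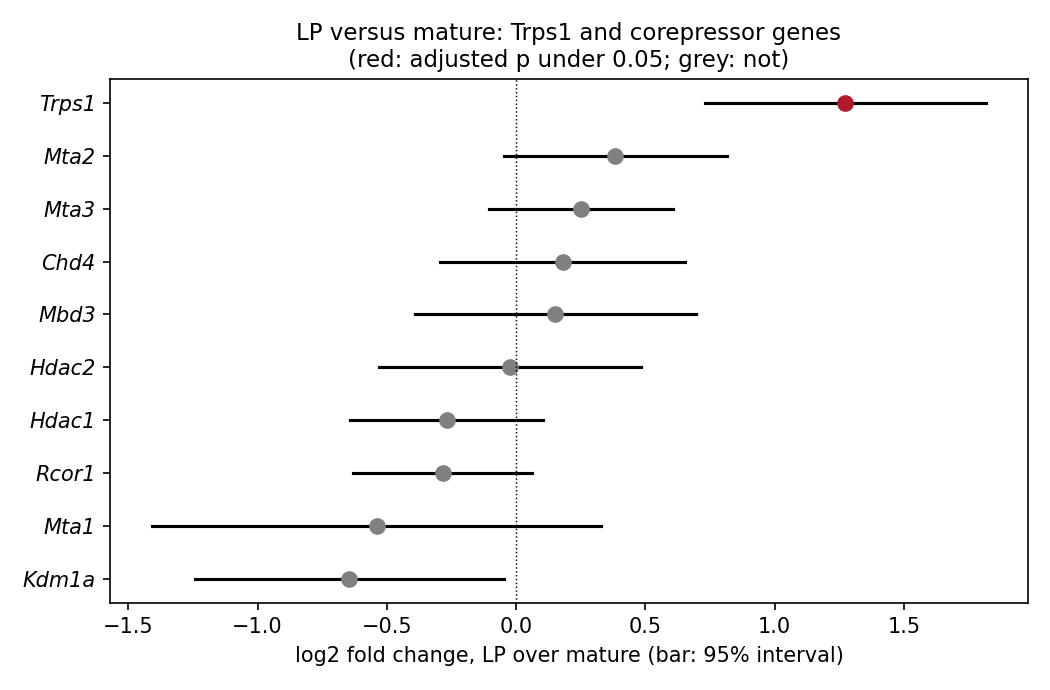
Log2 fold change of LP over mature for Trps1 and the 9 subunit genes (horizontal axis), with bars for the 95% interval of the edgeR fit over 4 LP and 4 mature libraries; red marks an adjusted p under 0.05. Trps1, at 1.27, has an interval that starts at 0.73, while the subunit genes range from -0.65 for Kdm1a to 0.38 for Mta2.

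Promoter sequence was available from RefSeq (GRCm38.p6, the mm10 assembly) for 7 of the 10 genes, as 8 promoters, and is shown because TRPS1 and GATA3 bind GATA letters. In sorted luminal cells, however, the study found regions bound by TRPS1 enriched for C2H2 zinc finger motifs. It proposes that TRPS1 depends there more on its C2H2 fingers than on its GATA domain. Both strands were searched for GATA (read as GATA or TATC, which overlap where GATATC occurs) in the 250 bases before the start. These letters occurred in 3 of the 8 promoters, 1 each of Chd4, Rcor1 and Kdm1a, against 53.6% of 32851 promoters of that length. The promoters of Chd4 overlap each other, and the one at chr6:125095913-125096162 held 0 matches. The 8 promoters held 12 to 39 CG dinucleotides with a median of 23.5, against a median of 6 over all promoters. The 3 with the letters are printed from 5′ to 3′ on the strand of the gene, without bases annotated as exon, and with GATA or TATC in capitals. They lie at chr6:125095731-125095979 on the plus strand for Chd4, chr12:111039117-111039350 on the plus strand for Rcor1 and chr4:136602788-136602973 on the minus strand for Kdm1a.
Chd4: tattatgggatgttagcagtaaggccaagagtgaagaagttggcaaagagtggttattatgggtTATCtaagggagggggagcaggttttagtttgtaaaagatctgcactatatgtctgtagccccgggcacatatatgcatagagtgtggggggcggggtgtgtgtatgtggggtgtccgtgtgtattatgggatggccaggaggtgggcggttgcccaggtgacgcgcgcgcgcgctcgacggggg
Rcor1: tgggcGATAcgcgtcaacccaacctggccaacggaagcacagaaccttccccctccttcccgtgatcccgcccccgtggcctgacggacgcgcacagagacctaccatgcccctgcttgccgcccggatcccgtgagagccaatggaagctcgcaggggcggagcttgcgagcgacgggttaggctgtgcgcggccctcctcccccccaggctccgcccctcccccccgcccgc
Kdm1a: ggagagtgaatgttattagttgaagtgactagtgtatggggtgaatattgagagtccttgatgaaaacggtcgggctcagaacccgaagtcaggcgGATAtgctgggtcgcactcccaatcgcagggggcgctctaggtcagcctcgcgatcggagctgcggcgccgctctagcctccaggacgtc
Each printed stretch holds 1 match, which describes letters and not a bound site. Trps1, Hdac1 and Mta3 had no entry.

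To set the genes in order, levels were divided by the length of all exons of a gene and expressed as RPKM. In LP, Trps1 was highest at 47.8 ± 8.77 RPKM, followed by Mta2 at 25.9 ± 6.06, Chd4 at 18.8 ± 3.28, Hdac1 at 16.0 ± 2.25 and Rcor1 at 14.1 ± 1.13 RPKM (SD, n = 4). Mta3 (11.9 ± 1.26), Mbd3 (9.98 ± 1.70), Hdac2 (8.41 ± 0.745), Kdm1a (6.88 ± 2.41) and Mta1 (4.67 ± 1.81) followed in RPKM. The Trps1 range lay apart from that of Mta2 in LP, and the ranges of all other neighbours in the LP order overlapped.

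In mature cells, Mta2 at 19.9 ± 3.18, Trps1 at 19.8 ± 6.67 and Hdac1 at 19.3 ± 2.19 RPKM (SD, n = 4) stood together at the top, ahead of Rcor1 at 17.2 ± 2.49 and Chd4 at 16.6 ± 4.15 RPKM. Kdm1a (10.8 ± 1.67), Mbd3 (8.98 ± 1.08), Hdac2 (8.53 ± 2.41) and Mta1 (6.75 ± 2.91) came after them in RPKM, with Mta3 between Kdm1a and Mbd3. All neighbours in the mature order overlapped. Mta1 was last in both fractions. The level of Trps1 thus stood apart from the subunit genes in LP and among the most abundant of them in mature cells. Dividing by the longest transcript instead put Hdac1 first in mature cells.

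The ratio of Trps1 to each subunit was taken within each library, where the scaling of the library cancels. Trps1 RPKM over Chd4 RPKM was 2.18, 3.72, 2.36 and 2.17 in LP and 0.792, 1.57, 1.5 and 1.03 in mature cells. Over Hdac1 it was 2.27 to 4.17 in LP and 0.757 to 1.29 in mature cells, and over Hdac2 4.55 to 6.69 and 1.29 to 2.83. Over Rcor1 it was 2.69 to 4.06 and 0.719 to 1.54, and over Kdm1a 4.51 to 15.1 and 1.12 to 2.37. For 7 of the 9 subunit genes the LP ratios lay above all mature ratios. The exceptions were Mta2, at 1.12 to 2.69 and 0.803 to 1.30, and Mbd3, at 3.34 to 6.07 and 1.34 to 3.84. These ratios share Trps1 as numerator and are not independent of each other. Trps1 itself did not overlap between the fractions. How often its ratio to any other tested gene separates them was not counted, so the count is not read as particular to the subunit genes.

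**Figure D3:**
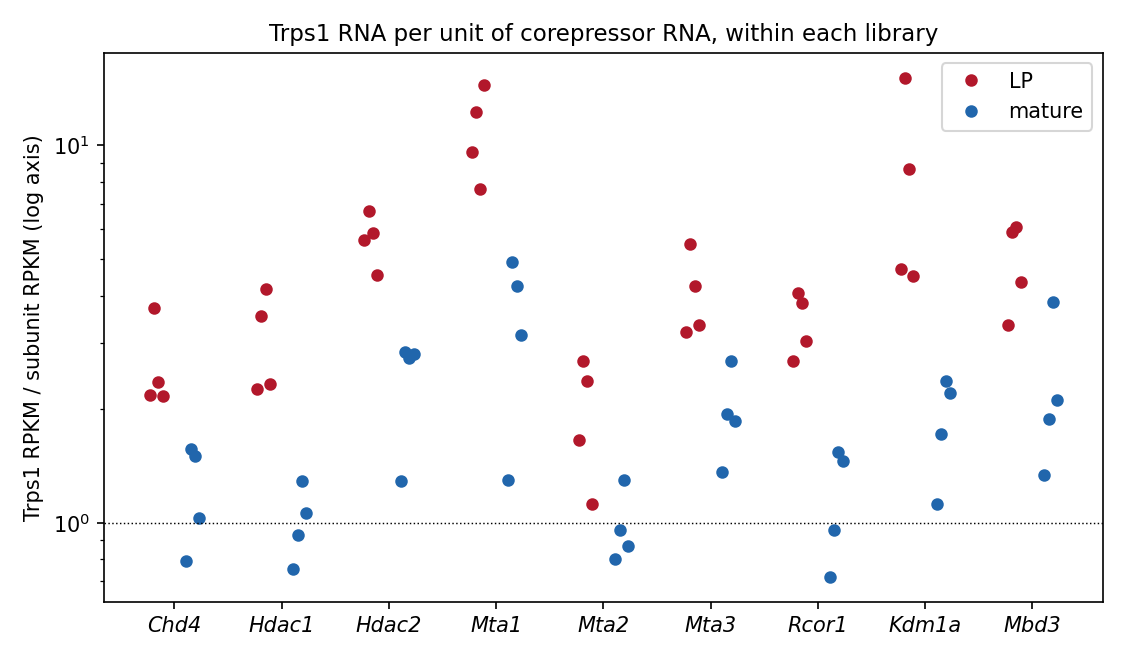
RPKM of Trps1 divided by the RPKM of each subunit gene within each library (log axis), with LP in red and mature in blue; the dotted line marks equal levels. All LP points lie above 1, and LP and mature points are separate for 7 subunit genes but overlap for Mta2 and Mbd3.

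The mixture of the alternative subunits was compared next. Of the summed RPKM of the MTA genes, Mta2 made up 60.5% ± 7.26 in LP and 54.4% ± 6.28 in mature cells, Mta3 28.2% ± 3.08 and 27.5% ± 1.18, and Mta1 11.3% ± 4.64 and 18.1% ± 6.98 (SD, n = 4). The groups overlapped for all 3 shares. The ratio of Hdac1 to Hdac2 RPKM was 1.41 to 2.48 in LP and 1.70 to 3.04 in mature cells, and that of Kdm1a to Rcor1 0.268 to 0.674 and 0.555 to 0.663, both with overlap.

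The helicases differed in their mixture. Chd3, which encodes the alternative NuRD helicase, had 10.7, 11.9, 12.8 and 10.3 CPM in LP and 26.6, 30.5, 38.7 and 39.0 CPM in mature cells, so that no LP library came near a mature one. Its log2 fold change was -1.56 with an SE of 0.238 and an adjusted p of 0.00137 in edgeR, or 2.95-fold higher in mature cells. Of the summed Chd3 and Chd4 RPKM, Chd3 made up 6.82% ± 1.14 in LP and 19.9% ± 4.15 in mature cells (SD, n = 4). The sum itself was 20.2 ± 3.34 and 20.6 ± 4.61 RPKM. Chd4 had the larger share in all 8 libraries.

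Further corepressor subunits and relatives were taken from 8 lists with 66 distinct genes, of which 59 were tested. The edgeR test called 2 of them higher in LP and 7 lower, beside the background of 10.9% and 13.8%. Among 7 tested further NuRD subunits, 0 were called higher and 1 lower, Chd3, and the median log2 fold change was -0.52 against 0 over all tested genes. Gatad2b, which encodes a NuRD linker subunit, was also called lower by DESeq2 and by the exact and likelihood ratio tests of edgeR, and had a log2 fold change of -0.52 and an adjusted p of 0.0502 in the quasi-likelihood test. It and Ikzf2 are named after their values were seen.

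Of 12 further CoREST subunits and partners, 1 was called higher and 0 lower, with a median log2 fold change of -0.15. The called gene was Ctbp1, a corepressor that binds to many repressive zinc finger proteins, with 73.0 to 109 CPM in LP and 60.3, 60.4, 28.0 and 57.4 CPM in mature cells. Its log2 fold change was 0.78 (SE 0.253) at an adjusted p of 0.0459 in edgeR, close to the threshold. Leaving out a single library ended this call in 6 of 8 fits, and leaving out a same-numbered LP and mature library together ended it in 3 of 4. At an unadjusted p under 0.05 in edgeR, 3 genes of this list were higher and 1 lower, and DESeq2, the edgeR exact test and the edgeR likelihood ratio test also called Ctbp1 alone.

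The NCoR complex had 1 gene called higher out of 6, with a median log2 fold change of 0.16. That gene was Hdac3, the deacetylase of this complex, with 109, 138, 99.8 and 139 CPM in LP and 66.9, 62.3, 51.4 and 57.3 CPM in mature cells. All LP libraries were above all mature libraries, with a log2 fold change of 1.03 (SE 0.169) and an adjusted p of 0.00203 in edgeR.

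In the SIN3 complex, which also contains HDAC1 and HDAC2, 0 of 13 genes were called higher and 2 lower, with a median log2 fold change of -0.27. Sap30, a subunit that stabilizes the complex, had 19.7 to 31.4 CPM in LP and 94.5, 110, 55.3 and 51.5 CPM in mature cells, a log2 fold change of -1.60 (SE 0.277, adjusted p of 0.0026 in edgeR). Ing2, which binds methylated lysine 4 of histone H3, had 10.4 to 27.4 CPM in LP and 69.2, 69.6, 31.8 and 45.4 CPM in mature cells, a log2 fold change of -1.44 (SE 0.359, adjusted p of 0.0146). Both genes were highest in mature replicates 1 and 2. The summed fibroblast markers were also highest there, at 138 and 179 CPM against 28.3 and 27.0 CPM in mature replicates 3 and 4. Dcn gave 132 and 154 CPM of the sums in replicates 1 and 2, Pdgfra was 0.562 and 16.3 CPM there, and the other 4 markers were each at 5.52 CPM or less. The summed luminal markers Epcam, Krt8, Krt18 and Krt19 were highest in mature replicates 1 and 2 as well. They reached 30718 and 40819 CPM there, against 23002 and 22792 CPM in mature replicates 3 and 4. The 7 mature markers summed to 6887, 6545, 4798 and 6965 CPM in mature replicates 1 to 4 and did not follow that order. The part of any of these markers in the levels of Sap30 and Ing2 was not tested.

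**Figure D4:**
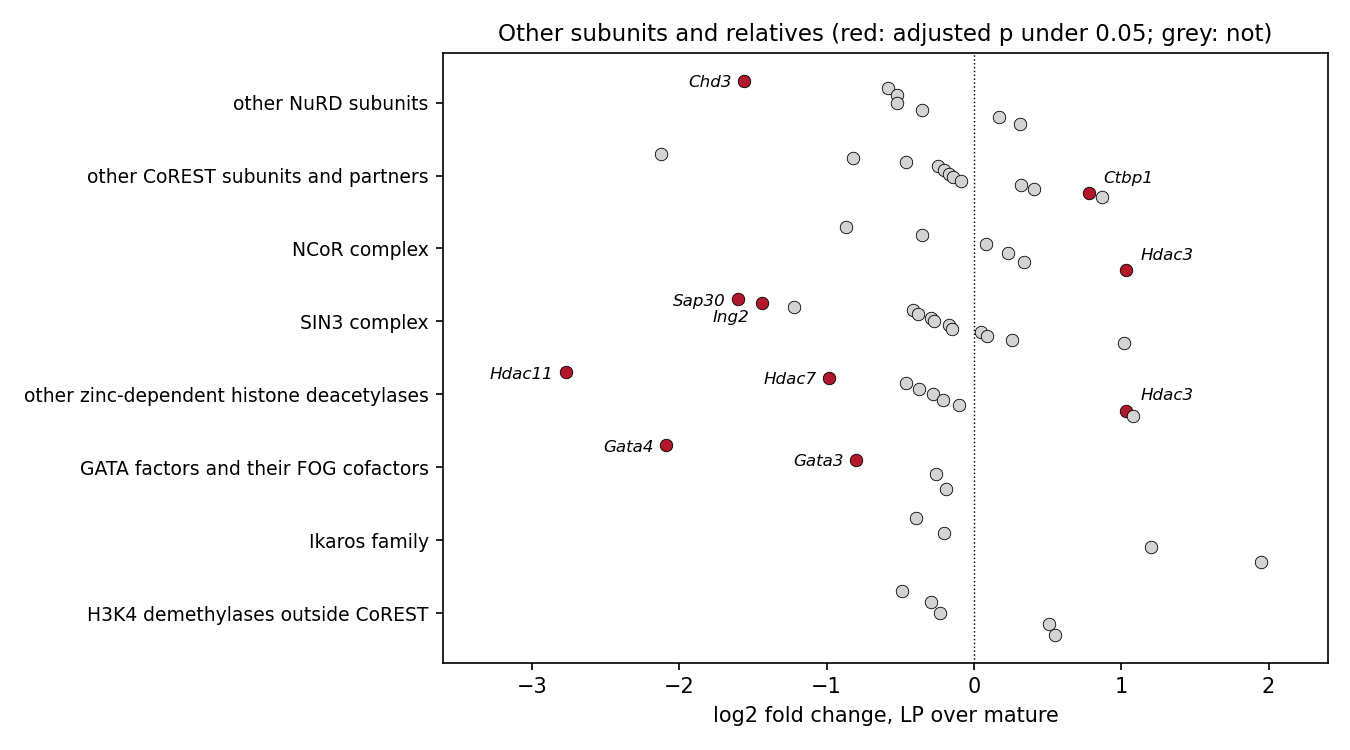
Log2 fold change of LP over mature for the 59 tested genes of 8 lists of corepressor subunits and relatives (1 row of points per list; Hdac3 stands in 2 lists), with red and a name for an adjusted p under 0.05 in edgeR and grey for the others. Of the 9 called genes, Ctbp1 and Hdac3 lie to the right of 0, and the other 7 lie to the left, from -0.80 for Gata3 to -2.77 for Hdac11.

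Of 9 zinc-dependent histone deacetylases other than Hdac1 and Hdac2, 1 was called higher in LP and 2 lower, and the median log2 fold change was -0.28. Beside Hdac3, described above, Hdac11, the only member of its class, had 21.1, 16.1, 19.6 and 16.0 CPM in LP and 146, 90.9, 80.3 and 179 CPM in mature cells. Its log2 fold change was -2.77 (SE 0.275) at an adjusted p of 0.000268 in edgeR, or 6.83-fold higher in mature cells. Of the 51-base stretches of its longest transcript, 22.7% also occur in Gm44002 and Gm14573 on the opposite strand, and no source used here states that strand was read. Hdac7 had 7.64 to 12.9 CPM in LP and 14.2 to 26.1 CPM in mature cells, a log2 fold change of -0.98 (SE 0.324) at an adjusted p of 0.0489, and the call was lost under 15 of 20 alternatives.

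As shares of the summed RPKM of Hdac1 to Hdac11, Hdac3 made up 39.7% ± 4.94 in LP and 15.7% ± 2.12 in mature cells, and Hdac11 6.32% ± 1.13 and 33.6% ± 9.36 (SD, n = 4). The NuRD and CoREST enzymes Hdac1, at 21.3% ± 2.68 and 20.7% ± 3.67, and Hdac2, at 11.2% ± 1.36 and 9.12% ± 2.66, had overlapping shares of this sum. Of the class I enzymes alone (Hdac1, Hdac2, Hdac3 and Hdac8), Hdac1 made up 26.3% ± 3.98 in LP and 37.7% ± 3.14 in mature cells, without overlap, Hdac2 13.8% ± 1.67 and 16.6% ± 4.05, with overlap, and Hdac3 48.9% ± 4.93 and 28.9% ± 4.34, without overlap (SD, n = 4). Shares of a common sum depend on each other. Hdac1 itself overlapped between the fractions and was not called, and its level is uncertain because of shared sequence. Among all 11 enzymes the gene with the highest mean was Hdac3 in LP and Hdac11 in mature cells.

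**Figure D5:**
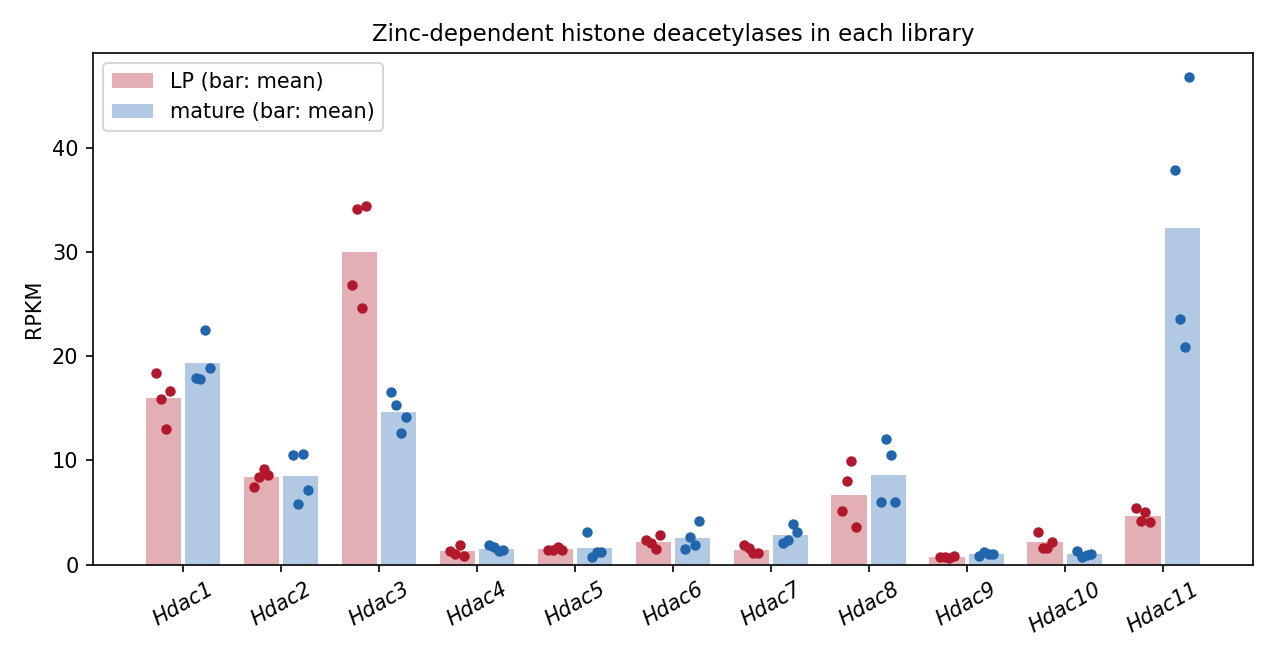
RPKM of the 11 zinc-dependent histone deacetylase genes (linear axis from 0), with LP in red and mature in blue, bars for the mean and points for each of 4 libraries. Hdac3 is higher in LP and Hdac11 higher in mature cells, whereas the points of Hdac2 overlap and those of Hdac1 overlap in part.

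Among GATA factors and their FOG cofactors, 4 of 8 genes were tested, 0 were called higher and 2 lower, and the median log2 fold change was -0.53. Gata3 had 1494, 1454, 1171 and 1309 CPM in LP and 2337, 1958, 2320 and 2805 CPM in mature cells. Its log2 fold change was -0.80 (SE 0.183, adjusted p of 0.01 in edgeR), opposite in sign to that of Trps1. The ratio of Trps1 to Gata3 RPKM was 0.111, 0.154, 0.185 and 0.118 in LP and 0.0231, 0.0337, 0.0497 and 0.0282 in mature cells, so Gata3 was the more abundant RNA in all 8 libraries and the ratios of the fractions did not overlap. Gata4, a GATA factor best known from heart and endoderm, had 2.16 to 3.82 CPM in LP and 8.30 to 13.4 CPM in mature cells, from 15 to 82 reads in a library (log2 fold change -2.09, SE 0.413, adjusted p of 0.00491).

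Of the Ikaros family, zinc finger proteins related to TRPS1 in their C-terminal fingers, the quasi-likelihood test of edgeR called 0 of 4 tested genes, 1 had an unadjusted p under 0.05, and the median log2 fold change was 0.50. That gene, Ikzf2, had 17.7 to 50.9 CPM in LP and 5.42 to 19.0 CPM in mature cells, with overlap. Its log2 fold change was 1.2 (SE 0.437) at an adjusted p of 0.0694, and it was called higher in LP by DESeq2, by the exact and likelihood ratio tests of edgeR and with a minimum of 10 counts in every library, over a range of adjusted p of 0.0278 to 0.305. The most abundant, Ikzf5, had 23.4 to 40.5 CPM in LP and 27.3 to 50.6 CPM in mature cells (log2 fold change -0.20, adjusted p of 0.604), and 83.6% of its 51-base stretches also occur in other genes, among them Pstk on the opposite strand, so its level is uncertain. Of the 5 tested demethylases of lysine 4 of histone H3 outside CoREST, edgeR and DESeq2 called 0, and 1 gene in each direction had an unadjusted p under 0.05, with a median log2 fold change of -0.23. The most abundant, Kdm5a, had 201 to 280 CPM in LP and 254 to 312 CPM in mature cells (log2 fold change -0.29, adjusted p of 0.213).

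Last, genes with a pattern over the libraries like that of Trps1 were looked up by Pearson correlation of log2 CPM over the 8 libraries, among 5643 genes with a mean of at least 5 log2 CPM. The closest were Sorbs2 (r = 0.988), Pitpnc1 (0.985), Ucp2 (0.979), Ogfrl1 (0.977) and Elf5 (0.977). Elf5 encodes a transcription factor of the progenitor and alveolar lineage, and Ucp2 a mitochondrial carrier. All 5 were higher in LP, with log2 fold changes of 1.61, 2.3, 1.89, 3.52 and 2.02 in that order. Among the subunit genes r was highest for Mta3 (0.673) and Mta2 (0.569) and lowest for Kdm1a (-0.728), and it was -0.814 for Gata3. These values describe 8 libraries that fall into 2 fractions, which any gene that differs between the fractions shares.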

How the data were processed

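The authors sorted LP and mature cells, sequenced 51 bp single-end reads, trimmed them with cutadapt and aligned them to mm10 with bowtie2, for which the submitters' processing notes name versions 4.2 and 2.3.5.1. They deposited raw counts per gene, as whole numbers for 24594 Entrez Gene IDs without normalization. The counting program, its annotation and its use of strand are not given in the sources used here. The methods state 3 biological replicates per condition, whereas 4 libraries of each fraction were analysed. The labels do not say that the libraries came from separate animals, so p-values measure the spread between these libraries, which may be technical.

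Of the IDs, 24570 matched RefSeq, and 18975 genes had at least 1 read. In R 4.3.3, edgeR 4.0.16 was applied to the counts (TMM factors of 0.866 to 1.1, filterByExpr by fraction, quasi-likelihood F-test, Benjamini-Hochberg adjustment), which left 12816 genes with a common biological coefficient of variation of 0.393. SE is the absolute log2 fold change divided by the square root of F. Alternatives used DESeq2 1.42.0, other edgeR tests and factors, other filters, a replicate block and left-out libraries. RPKM divides CPM by the exon union in GENCODE M21, used in place of RefSeq exons. Permutation tests used scipy 1.17.1. The procedure was tested on simulated data. It recovered 12% of 100 genes changed by an absolute log2 fold change of 1 and 63% of 100 changed by 2. Of its calls there, 3.85% were false. All other genes among the 12816 were simulated without a change, whereas 24.7% of tested genes were called in the data. The threshold after adjustment depends on the share of changed genes, so the recovered percentages need not hold for the data. A gene without a call may still differ between the fractions.

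The members and gene lists were chosen with earlier results of these data known. Named genes are all members, the called genes of each list (at most 3) or, with none called, its most abundant gene, the 5 genes most like Trps1, and Kit and Elf5. Other experiments of the study were not analysed here, and 1 listed gene is not reported here.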

Additional observations from a re-analysis of the deposited data

Results flagged for a closer look

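In 54 groups of 4 libraries (27 named genes in each fraction), 2 held a library set apart from the other three by Dixon's criterion, which chance meets in about 1 in 20 groups. Ctbp1 was 28.0 CPM in mature replicate 3 and 57.4 to 60.4 CPM in the other mature libraries. Without that library the log2 fold change of Ctbp1 was 0.60 and remained past the threshold in edgeR. Gata4 was 3.82 CPM in LP replicate 3 and 2.16 to 2.32 CPM in the other LP libraries, and without it the log2 fold change was -2.32. No member was set apart in this way in either fraction.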

How the results depend on the processing

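Over 20 alternative fits, Trps1 was called higher in LP in all, with a log2 fold change of 1.13 to 1.55 and an adjusted p of 4.65e-06 to 0.0456, and no subunit gene was called in any. With all 8 libraries the log2 fold change of Trps1 was 1.27 to 1.33. It was lowest without replicate 2 (1.13) and highest without mature replicate 3 (1.55). The number of genes called was 3161, and 2917 to 3791 in the alternatives with all 8 libraries at the same threshold, the highest from DESeq2. With libraries left out it ran from 1615 without replicate 2 to 3414 without mature replicate 3, and it was 1808 without replicate 1. At the stricter level (adjusted p under 1e-4 and an absolute log2 fold change over 1), the quasi-likelihood fit called 3 genes and 0 of the 10 members. Trps1 met that level in DESeq2 and in the likelihood ratio and exact tests of edgeR, where the share of all genes that pass was not counted. The sign of Hdac2, which was not called in any fit, turned from -0.02 to 0.01 with upper-quartile factors, 0.04 with no filter and 0.02 with a replicate block, and ran from -0.14 to 0.15 with libraries left out. With the replicate block 3027 genes were called and the log2 fold change of Trps1 was 1.31. Same-numbered libraries deviated together with r of 0.107, 0.059, 0.141 and 0.084, and each LP library correlated best with the mature library of its own number, whereas mature replicate 2 correlated best with LP replicate 1. Libraries of the same replicate number also share a number in their labels (573, 574, 674 and 718). The methods state no pairing, so the main fit left the libraries unpaired. The replicate block is the fit that treats same-numbered libraries as pairs. Among the listed genes, the calls of Ctbp1 were lost under 9 alternatives, of Hdac7 under 15, and of Ing2 and Gata3 under 2 each. The causes were not tested. Genes with few reads, such as Mta1, were measured with wide intervals at this depth.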
